A study of Mus musculus with 250 samples.

Results

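The stefin A genes Stfa1, Stfa2, Stfa3, Csta1 and Cstdc5 were followed through 250 single epidermal cells of mouse tail skin. They are 5 of the 27003 gene symbols in the count table and were taken by symbol. The 5 were selected on measured values, since reads of the family had already been seen to differ between skin regions in these same cells. Their levels and ratios are therefore a description, and no test is given for them. Mice of the genotype Lrig1CreER/Rosa-TdTomato were used, and cells were sorted for the Lrig1 lineage label and for Sca1, the surface protein encoded by Ly6a. Lrig1 drives the Cre in stem cells of the upper hair follicle, so the tomato reporter marks those cells and their progeny, and the sort was meant to enrich for upper follicle cells. Batches 1 and 2 held 30 and 55 cells of the wound bed, 32 and 49 of the distal memory region, and 28 and 56 of the control region, which is labelled as non-memory. All 3 regions share the genotype, the sort and a time label of 8 weeks. The labels give no age, sex or animal of origin. Each region therefore counts as 1 sample, and each region and batch was 1 plate, so a region and its plate cannot be told apart within a batch.

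Stefins are small intracellular members of the cystatin superfamily that bind tightly and reversibly to papain-like cysteine proteases such as cathepsins B, H and L. Humans have a single stefin A gene, CSTA, whose protein is abundant in the upper epidermis and in cornified envelopes, and loss of CSTA causes skin peeling. Mice carry a cluster of related stefin A genes in its place, and transcripts of several of them are also known from mouse neutrophils.

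Full-length reads without molecular identifiers (Smart-Seq2) were counted per gene and cell. Plates of the wound bed held 1751116 and 2898446 reads, distal plates 10671470 and 2888806, and control plates 4481121 and 4029606. In distal batch 1, 4 cells with over 500000 reads each held 72.8% of the plate's reads. Reads of 6 predicted genes made up over 5% of the non-mitochondrial reads in 1 wound bed cell, 3 distal cells and 24 control cells, and 18 of these control cells were in batch 1. Krt14, a keratin of basal epidermal cells, had reads in 75 of 85 wound bed cells, 64 of 81 distal cells and 75 of 84 control cells. Ly6a had reads in 64, 42 and 27 cells of the same regions, and Lrig1 itself in 1, 14 and 18. The 12 leukocyte genes with a row in the table together had reads in 1 wound bed cell, 4 distal cells and 4 control cells. Among them, Ptprc, the pan-leukocyte marker, had no read in the wound bed, 57 reads in 1 distal cell and 8 reads in 1 control cell.

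The 5 genes lay within 335.4 kb of chromosome 16 (GRCm38), chr16:36119946-36455392, among 11 stefin A-like genes. Csta1 occupied chr16:36119946-36131189, Stfa1 chr16:36277148-36285371, Cstdc5 chr16:36359382-36367570, Stfa2 chr16:36403946-36408363 and Stfa3 chr16:36450537-36455392. Stfa1 is on the plus strand and the other 4 are on the minus strand. All 5 are annotated as protein coding, and Cstdc5 is listed under its older name BC100530 in GENCODE. Some transcripts of this cluster share stretches of sequence, which bears on how reads are divided between them. Of the distinct 31-base words in the Stfa1 transcripts, 39.01% also occurred in Cstdc5 and 19.7% in the neighbour Cstdc6. Of those in the Cstdc5 transcripts, 35.1% also occurred in Stfa1. The Stfa2 transcript shared 25.9% of its words with Stfa2l1, which lies farther off in the cluster, and none with Stfa1, Stfa3 or Cstdc5. Csta1 shared 3.31% of its words with any other transcript, and Stfa3 shared none. Reads of Stfa3 and nearly all of Csta1 can thus be told apart from the rest at this length, whereas the split of reads between Stfa1 and Cstdc5 is uncertain.

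The start regions of 4 of the genes are shown because the marked letters recur across them. Reads of Stfa1, Cstdc5 and Stfa3 were found in the same cells, whereas Stfa2 had reads in 1 cell only. They are from RefSeq promoter windows (GRCm38.p6, 250 bases before to 50 after the gene start), 5′ to 3′ on the strand of each gene. Capitals mark ACCTTTAAAACCC and GGATCATTTCTTCTCAG, which all 4 windows hold. The stretches are chr16:36277055-36277163 on the plus strand for Stfa1, and, on the minus strand, chr16:36367534-36367642 for Cstdc5, chr16:36455379-36455486 for Stfa3 and chr16:36408348-36408455 for Stfa2.
Stfa1: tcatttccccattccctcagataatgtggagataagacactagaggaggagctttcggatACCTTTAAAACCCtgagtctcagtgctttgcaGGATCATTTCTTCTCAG
Cstdc5: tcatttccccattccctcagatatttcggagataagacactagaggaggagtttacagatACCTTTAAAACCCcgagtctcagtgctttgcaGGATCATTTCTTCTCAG
Stfa3: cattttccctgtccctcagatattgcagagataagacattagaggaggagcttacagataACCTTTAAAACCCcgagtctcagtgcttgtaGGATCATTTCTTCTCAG
Stfa2: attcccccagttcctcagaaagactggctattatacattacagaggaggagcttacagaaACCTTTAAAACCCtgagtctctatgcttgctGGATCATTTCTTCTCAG
Searched on both strands, GGATCATTTCTTCTCAG was in 6 of 32851 mouse promoter windows (0.0183%), all 6 of them in this cluster. ACCTTTAAAACCC was in 9 windows (0.0274%), 8 of them in the cluster. The Csta1 window held neither. Both words were picked from the longest words shared by these same 4 windows, so the hits in the 4 follow from that choice. The shares over all windows are a description only. By the gene positions given above, the longer word spans or follows the gene start in all 4 genes, so it lies largely in transcribed sequence. Over the whole window, Stfa1 and Cstdc5 were 96.1% identical in 280 aligned columns, against 80.7% for Stfa1 and Stfa3 and 81.3% for Stfa3 and Stfa2. The AP-1 site TGANTCA was found in the Stfa3 window but not in the other 4, and in 7.81% of all windows. Stfa2 carried both capital words and was almost without reads, so these letters did not separate the genes with many reads from the gene with few.

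Stfa3 had reads in more cells than any other of the 5 genes, 149 of 250. It was found in 27 of 30 and 44 of 55 wound bed cells, in 26 of 32 and 25 of 49 distal cells, and in 13 of 28 and 14 of 56 control cells (batches 1 and 2). Over both batches these shares were 83.5% in the wound bed, 62.96% in the distal region and 32.14% in control, with exact 95% binomial intervals of 73.9 to 90.7%, 51.5 to 73.4% and 22.4 to 43.2%. The distal share lay near that of the wound bed in batch 1 and was lower in batch 2. Per cell, CPM (reads scaled to 1000000 reads of the cell) of Stfa3 in the wound bed ran from 0 over a median of 607 to 25630 in batch 1, and from 0 over 2352 to 37040 in batch 2. In the distal region it ran from 0 over 729 to 42040 in batch 1, and from 0 over 9.003 to 30260 in batch 2. In control the median was 0 in both batches, and the highest cells reached 8234 and 2665. Among cells with a read, median Stfa3 CPM was 1327 and 3084 in the wound bed, 1409 and 681.5 in distal cells and 63.2 and 273 in control cells. Regions thus differed in the share of cells with Stfa3 and in its level within those cells, and single cells of all regions overlapped.

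Cstdc5, a stefin A family inhibitor next to Stfa3 and Stfa2 in the cluster, separated the wound bed from the distal region in both batches. It had reads in 26 of 30 and 47 of 55 wound bed cells, 16 of 32 and 16 of 49 distal cells, and 7 of 28 and 9 of 56 control cells. The shares were 85.9% (interval 76.6 to 92.5%) in the wound bed, 39.5% (28.81 to 50.99%) in the distal region and 19.05% (11.30 to 29.08%) in control. Median Cstdc5 CPM over all cells was 2676 and 2670 in the wound bed, 1.84 and 0 in the distal region, and 0 in both control batches. Most wound bed cells in both batches therefore carried Cstdc5, as did 16 of 32 cells of distal batch 1 and a minority of cells in the other plates. Among cells with a read, the medians were 3390 and 3218 CPM in the wound bed, 667 and 1176 CPM in the distal region, and 27.8 and 191 CPM in control. The highest cells reached 27780 and 35030 CPM in the wound bed, 7520 and 19090 CPM in the distal region, and 15630 and 3851 CPM in control. At its highest, Cstdc5 took 3.503% of all reads of a wound bed cell. The ranges of the 3 regions overlapped, and 1 cell held 92.2% of the Cstdc5 reads of control batch 1.

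Stfa1, another cytosolic stefin A inhibitor, was found in fewer cells than Stfa3 and Cstdc5. It had reads in 17 of 30 and 30 of 55 wound bed cells, in 12 of 32 and 14 of 49 distal cells, and in 2 of 28 and 3 of 56 control cells. Median CPM among cells with a read was 306 and 585 in the wound bed, 405 and 531 in distal cells and 11.4 and 304.5 in control cells. Wound bed and distal cells that had Stfa1 thus held it at overlapping levels and differed more in how many cells had it. The control values rest on 7 reads in batch 1 and 60 reads in batch 2.

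Csta1, the most distant of the 5 genes from Stfa3 along the cluster and also a stefin A inhibitor, followed the same order of regions. It had reads in 17 of 30 and 27 of 55 wound bed cells, 12 of 32 and 14 of 49 distal cells, and 5 of 28 and 6 of 56 control cells. Among cells with a read, median Csta1 CPM was 376 and 364 in the wound bed, 230 and 186 in distal cells and 156 and 286 in control cells. Its highest cells held 978 and 2369 CPM in the wound bed, 1219 and 1112 CPM in the distal region, and 907 and 481 CPM in control. Within cells that had it, Csta1 varied less between regions than Stfa3 or Cstdc5 did.

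Stfa2, the fifth gene, had 4 reads in 1 wound bed cell of batch 1 and none elsewhere. A count of 0 in 81 distal cells and in 84 control cells allows shares with a read of up to 4.45% and 4.30% (exact 95% upper bounds). Reads of Stfa2 were too few for any comparison between regions at this depth.

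**Figure D1:**
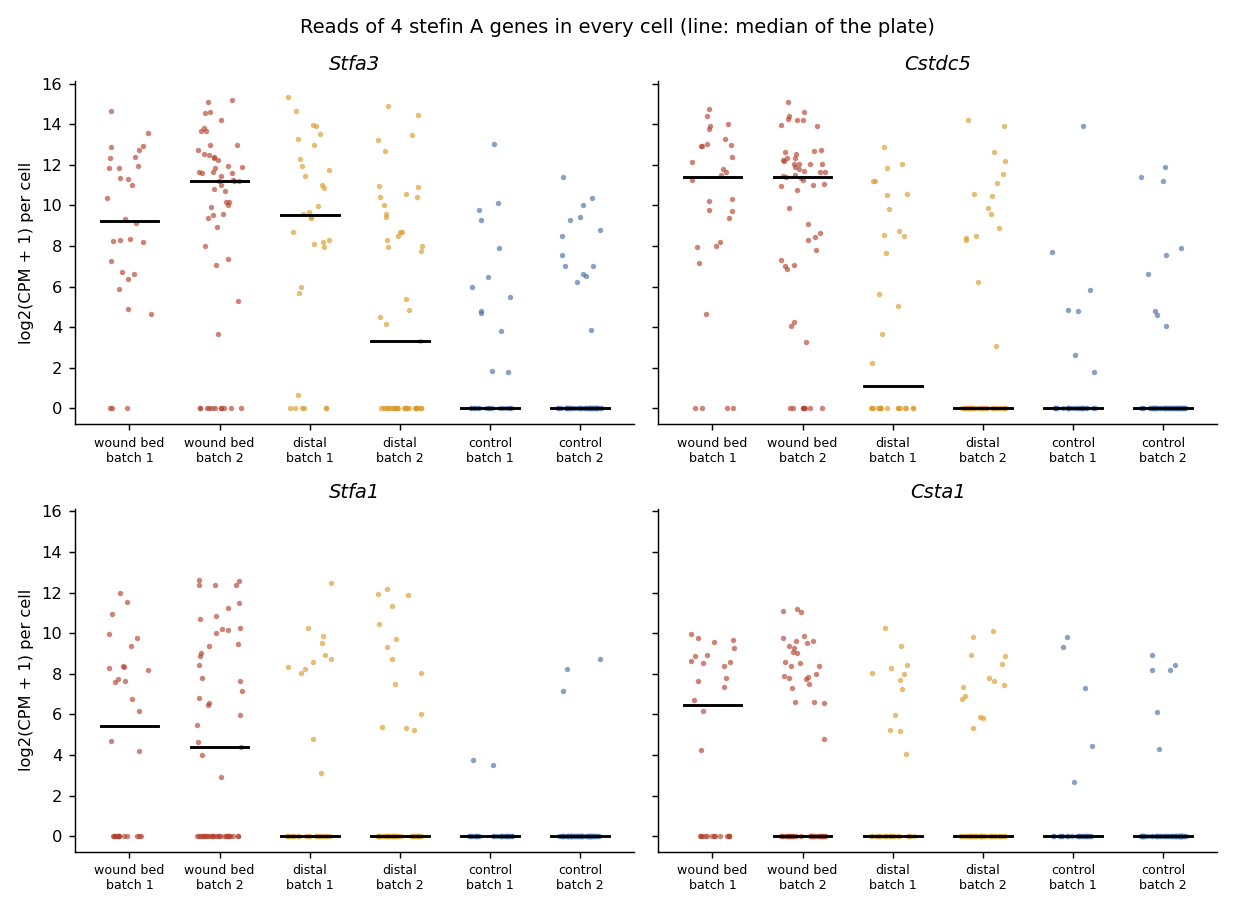
Level of Stfa3, Cstdc5, Stfa1 and Csta1 in each cell as log2(CPM + 1) on the vertical axis, by region and batch, with 1 point per cell and a line at the plate's median. Cells without a read lie at 0, and the Cstdc5 medians stand high in both wound bed plates and at or near 0 in the other 4 plates.

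**Figure D2:**
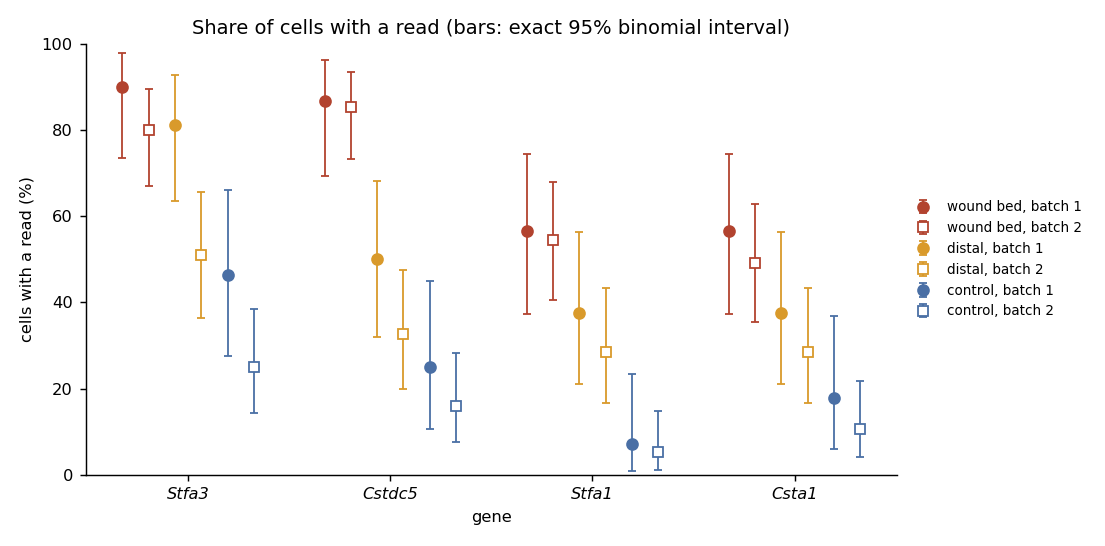
Percent of cells with a read of each gene on the vertical axis for the wound bed, distal region and control, batch 1 as filled circles and batch 2 as open squares, with exact 95% binomial intervals. For each gene and batch the order runs from wound bed over distal to control, and the distal and wound bed intervals overlap for Stfa3, Stfa1 and Csta1 in batch 1.

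Shares of cells with a read depend on depth. Wound bed cells had medians of 40809.5 and 41206 reads in batches 1 and 2, distal cells 93690.5 and 31686, and control cells 74378.5 and 63286.5. The wound bed cells were the shallowest in batch 1 and the distal cells in batch 2, where the distal shares were also lower than in batch 1. When each cell was thinned to 10000 reads, Stfa3 kept reads in 75.6% of 78 wound bed cells, 55.8% of 77 distal cells and 21.7% of 83 control cells. Thinned shares for Cstdc5 were 80.8%, 33.8% and 9.64%, for Stfa1 47.4%, 29.9% and 2.41%, and for Csta1 47.4%, 28.6% and 8.43%, in the same order of regions. All 4 genes kept the order wound bed, distal region, control. The distal batches also still differed after thinning. Stfa3 had reads in 75% of thinned distal cells of batch 1 and 42.2% of batch 2, and any of the 5 genes in 78.1% and 53.3%. Across the cells of a plate, the summed reads of the 5 genes had Spearman rho of -0.20 to 0.30 with depth. No cell type of this series is known to lack these genes for certain, so the share given by free RNA was not tested.

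Reads were then summed per plate, scaled by TMM (trimmed mean of M-values) and compared within each batch. The wound bed held 555 and 526 CPM of Stfa1 against 1.99 and 12 CPM in control. For Cstdc5 the wound bed held 6533 and 3731 CPM against 68.9 and 141 CPM in control, and for Stfa3 it held 3122 and 3283 CPM against 113 and 124 CPM. Csta1 had 242 and 246 CPM in the wound bed against 29.5 and 17.2 CPM in control. The plates of the 2 regions did not overlap for any of these 4 genes. A size rule asked for a log2 ratio of at least 1 in the same direction in both batches, among genes read in 10% or more of the cells of either region in each batch. It was met upward by 4 of the 5 genes and by 7.83% of the 5776 genes considered; since the 5 were picked for such differences, nothing is read from that contrast. Stfa2 was not among the genes considered. The log2 ratios of the 5 genes summed were 5.61 and 4.72, with medians over all genes considered of 0.03 and -0.03.

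Csta1 had the smallest ratios of the 4 genes in this comparison, with log2 values of 2.996 and 3.763. Stfa1 had 7.54 and 5.34, which rest on 7 and 60 control reads, and Cstdc5 had 6.55 and 4.71. The order of these 2 genes turned with the processing, with mean ratios of 5.08 for Stfa1 and 5.50 for Cstdc5 at a pseudocount of 10, and of 6.83 and 7.62 without the highest cell of each plate. In control batch 1, the 18 cells rich in reads of the 6 predicted genes held 95.7% of the reads of the 5 genes. The other 10 control cells of that batch held 32 reads in 3 cells, made up of 8 of Stfa3, 23 of Csta1, 1 of Cstdc5 and 0 of Stfa1. Without such cells in any plate, the batch 1 log2 ratio of wound bed over control was 8.81 for Stfa3 and 3.74 for Csta1, against 4.778 and 2.996 with all cells, and the batch 2 ratios were 4.66 and 3.71. For Cstdc5 and Stfa1 too few control reads were left in batch 1 for a ratio, while their batch 2 ratios were 4.66 and 5.29. In control batch 2, the 6 cells of that kind held 0.204% of the reads of the 5 genes. The stefin A reads of control batch 1 thus lay mostly in such cells. These were 18 of the plate's 28 cells, and the share of its reads of all genes that they held is not given here. What these cells are was not tested.

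Distal cells also held more reads of the 4 genes than control cells. Plate sums gave 6988 and 1144 CPM of Stfa3 in the distal region against 113 and 124 CPM in control, log2 ratios of 5.94 and 3.20. Stfa1 had 274 and 284 CPM in the distal region against 1.99 and 12 CPM in control, ratios of 6.53 and 4.46. Cstdc5 had 1387 and 762 CPM against 68.9 and 141 CPM, ratios of 4.31 and 2.42, and Csta1 had 185 and 51.5 CPM against 29.5 and 17.2 CPM, ratios of 2.61 and 1.53. The distal plates lay above the control plates for each of the 4 genes. Again 4 of the 5 genes met the size rule upward, as did 8.07% of the 6356 genes considered, and nothing is read from this count either. Both comparisons share the control plates. Over all genes considered, the median log2 ratios of distal over control were 0.23 and -0.07.

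Reads of these genes were concentrated in a few cells, more so in the distal and control plates than in the wound bed. The 4 deepest cells of distal batch 1 held 67.4% of its Stfa3 reads, 73.04% of its Cstdc5 reads and 56.8% of its Stfa1 reads, against 72.8% of its reads of all genes. A single cell held 24992 of the 52859 Stfa3 reads of that plate. In distal batch 2, 4 cells held 80.9% of the Stfa3 reads and 85.1% of the Cstdc5 reads. In the wound bed, the highest 4 cells held 55.4% and 49.9% of the Stfa3 reads and 60.9% and 49.9% of the Cstdc5 reads in batches 1 and 2. In control, the highest 4 cells held 87.19% and 74.6% of the Stfa3 reads and 98.35% and 97.31% of the Cstdc5 reads. When every cell was given equal weight, Cstdc5 and Csta1 no longer met the rule in the distal and control comparison, with batch 1 log2 ratios of 0.40 and 0.77 and batch 2 ratios of 2.69 and 1.63. Equal weights left Stfa3 at 3.48 and 3.65 and Stfa1 at 7.60 and 4.45. Among cells with at least 2000 detected genes, the batch 2 ratios of Cstdc5 and Csta1 were 0.76 and 0.69, and neither met the rule.

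Between the distal region and the wound bed, Cstdc5 was the gene that differed in the same direction and by the size rule in both batches. It had 1387 and 762 CPM in the distal region against 6533 and 3731 CPM in the wound bed, log2 ratios of -2.24 and -2.29. Of the genes considered, 5.28% met the rule downward in this comparison and 9.59% upward, while 1 of the 5 genes met it downward and 0 upward. Without the highest cell of each plate the Cstdc5 ratios were -3.29 and -2.99, and with equal weight for every cell they were -2.67 and -2.40. Stfa1 had 274 and 284 CPM in the distal region against 555 and 526 CPM in the wound bed, log2 ratios of -1.02 and -0.89. Stfa3 went in opposite directions, at 6988 CPM in the distal region against 3122 CPM in the wound bed in batch 1, and 1144 against 3283 CPM in batch 2. Csta1 had 185 and 51.5 CPM in the distal region against 242 and 246 CPM in the wound bed, ratios of -0.39 and -2.24. The median ratios over all genes considered were 0.25 and -0.02.

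**Figure D3:**
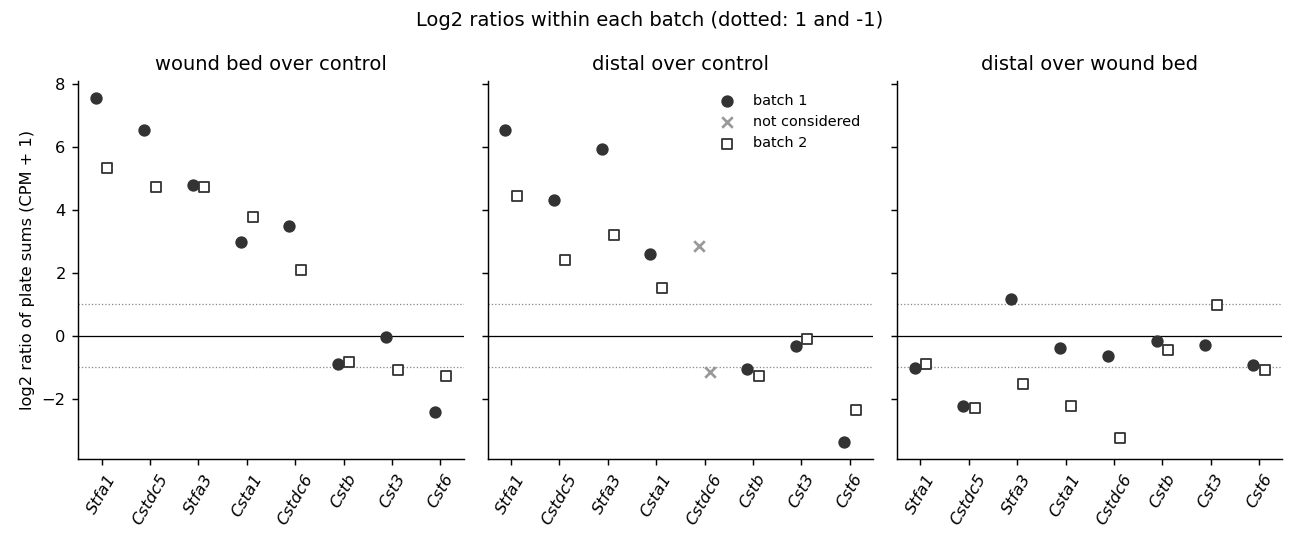
Log2 ratios of TMM-scaled plate sums within batch 1 (filled circles) and batch 2 (open squares) for the stefin A genes with reads, the neighbour Cstdc6 and the cystatins Cstb, Cst3 and Cst6, with crosses for genes too sparse to be considered. Both ratios over control are above 1 for Stfa1, Cstdc5, Stfa3 and Csta1, and in the distal over wound bed panel Cstdc5 lies at -2.24 and -2.29.

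Levels of different genes were compared per kilobase of transcript, which depends on the transcript used. In the distal region Stfa3 stood at 16960 and 2777 CPM per kb, above Cstdc5 at 2241 and 1231 with its longest annotated transcript or 3566 and 1959 with its shortest. In the wound bed, Stfa3 stood at 7578 and 7968 CPM per kb. Cstdc5 stood there at 10550 and 6027 CPM per kb with the longest transcript and at 16790 and 9591 with the shortest. The order of Stfa3 and Cstdc5 in wound bed batch 2 thus turned on the transcript chosen. Stfa1 was below both genes, with distal levels of 444 and 460.5 CPM per kb and wound bed levels of 899 and 853 CPM per kb by its longest transcript. Csta1 was the lowest in both wound bed plates, at 574 and 583 CPM per kb even with its shortest transcript.

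The balance of Stfa3 and Cstdc5 within single cells differed between regions in the same way. Of the 71 wound bed cells with Stfa3, 93.0% also had Cstdc5 (84.3 to 97.7%). Among 51 distal cells it was 52.9% (38.5 to 67.1%), and in control it was 37.04% of 27 cells (19.4 to 57.6%). Seen from Cstdc5, Stfa3 was present in 90.4% of 73 wound bed cells, 84.4% of 32 distal cells and 62.5% of 16 control cells with Cstdc5. Stfa3 without Cstdc5 was thus common in distal and control cells, and Cstdc5 without Stfa3 was the rarer state in the distal region. After thinning to 10000 reads, Cstdc5 was present in 89.8% of wound bed cells with Stfa3, 53.5% of distal cells with Stfa3 and 27.8% of control cells with Stfa3. In cells with both genes, the median log2 ratio of Stfa3 to Cstdc5 reads was 2.01 and 0.82 in the distal region (14 and 13 cells) and -0.93 and -0.25 in the wound bed (24 and 42 cells). Stfa3 had more reads than Cstdc5 in 24 of 27 such distal cells and in 26 of 66 such wound bed cells. In control the medians were 0.79 and 1.14 in 6 and 4 cells, on the same side as in the distal region. Stfa3 had more reads in 6 of these 10 control cells and Cstdc5 in 2. Transcript length cancels from this comparison of regions, since it is the same for a gene everywhere.

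Several of the genes were read together in most wound bed cells and in smaller shares elsewhere. At least 3 of the 5 had reads in 48 of 85 wound bed cells (56.5%, 45.3 to 67.2%), in 25 of 81 cells from the distal region (30.9%, 21.1 to 42.1%) and in 6 of 84 from control (7.14%, 2.67 to 14.9%). Stfa3, Cstdc5, Stfa1 and Csta1 were all present in 33 wound bed cells, 16 distal cells and 1 control cell. No member had a read in 7 wound bed cells, 24 distal cells and 49 control cells. Stfa3 alone was read in 2 wound bed cells, 17 distal cells and 12 control cells, while Stfa1 alone was read in none of the 250. Cells with all 4 genes were most frequent in the wound bed. In the distal region, cells with none of the genes were 4 of 32 in batch 1 and 20 of 49 in batch 2, and the cells outside the classes of none, Stfa3 alone and all 4 numbered 24.

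**Figure D4:**
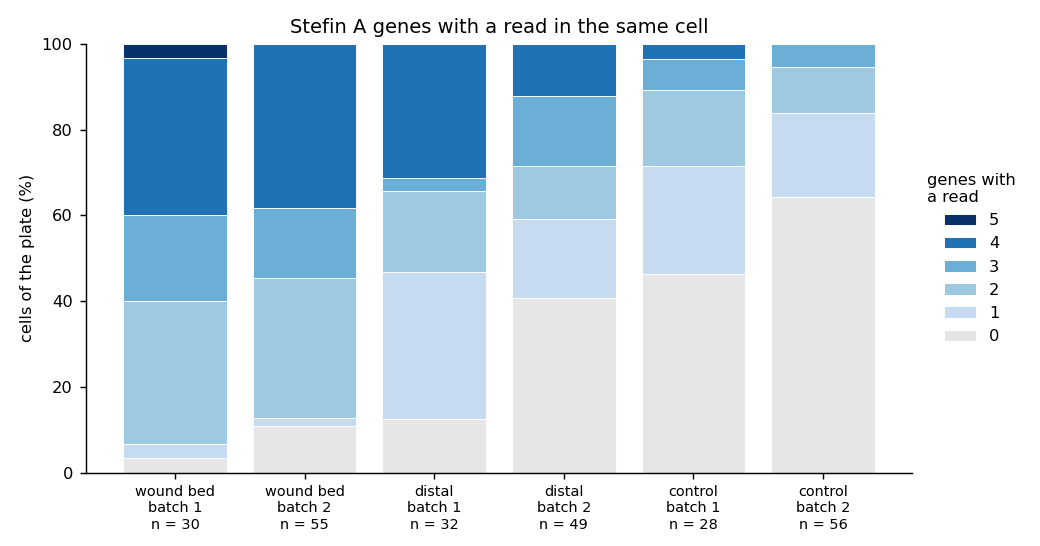
Percent of the cells of each plate, on the vertical axis, by the number of the 5 stefin A genes with a read in the cell, from 0 (light grey) to 5 (darkest). Cells with 3 or more genes are 56.5% of wound bed cells, 30.9% of distal cells and 7.14% of control cells over both batches.

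Stfa1 was read mostly in cells that also had the more widely read genes. Of 26 distal cells with Stfa1, 88.5% had Stfa3 and 84.6% had Cstdc5. Of 47 wound bed cells with Stfa1, 91.5% had Stfa3 and 95.7% had Cstdc5. Stfa3 was read in 92.3% of 26 distal cells with Csta1, 90.9% of 44 wound bed cells with Csta1 and 72.7% of 11 control cells with Csta1, and Cstdc5 in 73.1%, 95.5% and 45.5% of the same cells. These wound bed shares are close to those over all wound bed cells, 83.5% for Stfa3 and 85.9% for Cstdc5. Of the 14 wound bed cells without Stfa3, 7 had no read of any of the 5 genes.

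Levels also moved together from cell to cell within a plate. Spearman rho between the log2(CPM + 1) values of 2 genes was computed over the 28 to 56 cells of each of the 6 plates, whose cells share a plate and differ in depth. Stfa3 and Cstdc5, whose transcripts share no 31-base word, had rho of 0.23 to 0.66 over the 6 plates, with a median of 0.55. Stfa3 and Stfa1 had 0.24 to 0.68 (median 0.44), and Stfa3 and Csta1 had 0.28 to 0.64 (median 0.40). These 3 pairs were positive in all 6 plates. Cstdc5 and Stfa1, which do share sequence, had rho of 0.10 to 0.74 (median 0.56), and the ratio of Cstdc5 to Stfa1 reads in 45 wound bed cells with both spanned log2 values from -3.16 to 10.02. Stfa1 and Csta1 ran from -0.08 in control batch 2, where no cell had both, to 0.70 in distal batch 1. For 5 of the 6 pairs the lowest rho came from a control plate, and in counts this sparse a weak rho is not a finding.

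Among the other genes of the cluster, reads were few. Cstdc6, a neighbour of Cstdc5, had 24 and 28 reads in 6 and 12 wound bed cells, 62 and 0 reads in 5 and 0 distal cells, and 1 and 6 reads in 1 and 1 control cells. Its log2 ratios of wound bed over control were 3.48 and 2.10, and it met the size rule. Cstdc6 shares 42.02% of its 31-base words with Cstdc5 and 39.2% with Stfa1, so the assignment of its few reads is uncertain. Cstdc4 had 32 reads in 8 wound bed cells, 19 reads in 5 distal cells and none in control. Csta2 had 24 reads in 3 wound bed cells, Csta3 had 6 reads in 3 cells, and Stfa2l1 and Cstdc3 had none in any cell. Reads of the cluster thus concerned 4 of its 11 genes almost alone.

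The cystatins Cstb, Cst3 and Cst6 did not follow the stefin A genes. Cstb, which encodes stefin B, the broadly expressed relative, was read in 80% of wound bed cells, 83.95% of distal cells and 82.1% of control cells. Its plate sums were 170 and 240 CPM in the wound bed, 153 and 177 CPM in the distal region, and 317 and 424 CPM in control. Its log2 ratios over control were -0.89 and -0.82 in the wound bed, which did not meet the rule, and -1.05 and -1.26 in the distal region, which met it downward. Cst3, the secreted inhibitor cystatin C, had log2 ratios of -0.02 and -1.07 in the wound bed over control and -0.32 and -0.08 in the distal region over control. Cst6, cystatin M/E of the upper hair follicle and epidermis, was lower in both, at -2.43 and -1.27 in the wound bed and -3.36 and -2.34 in the distal region. These ratios rest on few cells. A single cell held 86.7% of the Cst6 reads of wound bed batch 2, 76.2% of distal batch 2 and 72% of control batch 1. Cst6 was read in 49.4% of wound bed cells, 41.98% of distal cells and 57.1% of control cells. Of the 6 genes of that list with a row, only Cstb, Cst3 and Cst6 could be considered, and 0 met the rule upward in any of the 3 comparisons. Over all genes considered, 7.83% (wound bed over control), 8.07% (distal over control) and 9.59% (distal over wound bed) met it upward. A count of 0 among 3 genes is therefore near the background.

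The proteases that stefins inhibit were listed as well. Of 13 listed genes, mostly lysosomal cysteine proteases with the serine carboxypeptidase Ctsa and the aspartic protease Ctsd among them, 11 had a row and 7 could be considered in the wound bed and control comparison. There 0 met the size rule upward and 1 downward, with median log2 ratios of 0.13 and -0.35. Over all genes considered 7.83% met it upward and 8.24% downward, so counts of this size among 7 genes are near the background. In the distal and control comparison 0 of 7 were higher and 1 was lower, with medians of -0.29 and -0.98, and Ctsf was the gene that met the rule in both. Ctsb had 266 and 1509 reads in the wound bed, 2706 and 937 in distal cells and 1540 and 2895 in control cells. Its log2 ratios were -1.56 and -0.35 in the wound bed over control. Ctsl, a protease of keratinocyte lysosomes, had ratios of -0.74 and 0.61, and Ctsh had 0.77 and 1.30. Reads of Ctsb were found in 51 wound bed, 54 distal and 62 control cells, so these proteases and the stefin A genes were present in the same samples.

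The cells with stefin A reads were described by the genes whose levels ran with theirs. Reads in 25% or more of all cells were found for 2330 genes, of which 2061 were ranked after predicted, clone-named, pseudogene, ribosomal protein and mitochondrial genes and the 5 genes themselves were left out. The median over 6 plates of the within-plate Spearman rho with the summed 5 genes lay between -0.19 and 0.14 for the central 90% of the ranked genes. Krt2, a keratin of upper spinous and granular layers in interfollicular epidermis, was most alike with a median of 0.54 (0.36 to 0.75 over plates). Mt4, a metallothionein of differentiating stratified epithelium, followed with 0.47 (0.24 to 0.74). After it came Calm5, a calmodulin-like gene of epidermal differentiation, with 0.40, and Maf, a transcription factor of differentiating keratinocytes, with 0.39. Degs1, a ceramide synthesis enzyme, had 0.38, Krt10, the main suprabasal keratin, had 0.37, and Perp, a desmosome-associated protein, and the zinc transporter gene Slc39a6 each had 0.36. All 8 were positive in each of the 6 plates. At the other end stood Krt17 with -0.50 (-0.54 to -0.13), Fzd7, a Wnt receptor, with -0.43, and Krt79, a keratin of the upper follicle canal, with -0.43. Krt17 was negative in all 6 plates, and Fzd7 and Krt79 in 5. The cells within a plate share depth and plate, and the median rho of Krt2 with depth was 0.03 and that of Krt17 was 0.19.

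**Figure D5:**
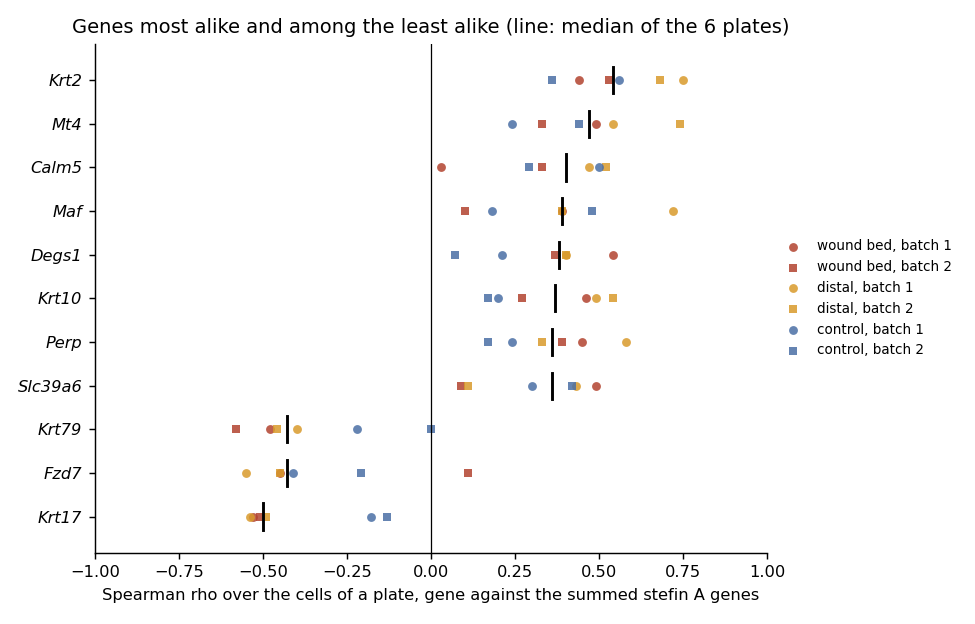
Spearman rho over the cells of each plate, on the horizontal axis, between the log2(CPM + 1) of each named gene and that of the 5 stefin A genes summed, with a point per plate coloured by region and a line at the median. The 8 genes most alike have medians of 0.36 to 0.54, and Krt17, Fzd7 and Krt79, among the least alike, have medians of -0.50 to -0.43.

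By list, 7 of 9 ranked suprabasal genes had a positive median rho with the summed stefin A genes (list median 0.29), against 2 of 9 basal genes (-0.08) and 1 of 6 upper follicle genes (-0.16). Presence in the same cell was also compared. The marker and gene pairs given here were picked after their values were seen. Krt2 had reads in 43 of 71 wound bed cells with Stfa3 and in 2 of 14 without it. In the distal region Krt2 was read in 31 of 51 cells with Stfa3 and 4 of 30 without, and in control in 7 of 27 with Stfa3 and 2 of 57 without. Krt17 was read in 7 of 73 wound bed cells with Cstdc5 and 10 of 12 without, in 1 of 32 distal cells with Cstdc5 and 24 of 49 without, and in 3 of 16 control cells with Cstdc5 and 33 of 68 without. In control cells split by other members the shares were close, with Krt17 in 44.4% of cells with Stfa3 against 42.1% without, and in 45.5% with Csta1 against 42.5% without. All 26 distal cells with Stfa1 had Krt10, against 33 of the 55 without. In the wound bed Krt10 was read in 38 of 47 cells with Stfa1 and 30 of 38 without. Krt5, a basal keratin, was read in 30 of 51 distal cells with Stfa3 and 22 of 30 without, and in 54 of 71 wound bed cells with Stfa3 and 12 of 14 without. Reads of both basal and suprabasal keratins were thus found among cells with stefin A reads.

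The epidermal lists did not shift alike between the regions. In the wound bed over control, basal genes had median log2 ratios of -0.11 and 0.89 (10 considered). Cornified envelope genes had -1.09 and -0.41 (3 considered), and wound keratinocyte genes had 2.02 and 1.55 (5 considered). In the distal region over control, these 3 lists had medians of 0.03 and 0.28, 1.71 and -1.44, and 0.72 and 1.42. Suprabasal genes had median log2 ratios of 1.22 and 0.86 in the wound bed over control and of 0.54 and 0.06 in the distal region over control. Of the 12 genes of that list, 3 were higher and 1 lower by the size rule in the wound bed over control, and 1 was higher and 1 lower in the distal region over control. The shares over all genes considered were 7.83% higher and 8.24% lower for wound bed over control, against 8.07% and 6.09% for distal over control. Upper follicle genes had medians of -2.31 and -1.38 in the wound bed over control and of -1.49 and -1.29 in the distal region over control. Of 10 upper follicle genes considered, 1 was higher and 5 lower in the wound bed over control, and 0 were higher and 4 lower in the distal region over control. Summed suprabasal levels were 37330 and 28820 CPM in the wound bed, 22080 and 14590 CPM in the distal region, and 18660 and 18810 CPM in control. The 1 suprabasal gene higher in the distal region over control was Tgm3, a transglutaminase of cornifying cells. Its ratios of 3.85 and 2.62 were above those of Csta1, 2.61 and 1.53, but rest on 1 and 2 control reads. The part of these shifts in the stefin A result was not tested. Since reads were summed over cells, more cells of a kind and more RNA per cell are combined in each plate ratio.

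Mouse stefin A transcripts are also known from neutrophils, and reads of neutrophil markers were few outside 1 cell. Of 16 listed genes, 7 had a row, and their summed level was 448 and 0.30 CPM in the wound bed, 4.23 and 0.57 CPM in the distal region, and 0.85 and 25.2 CPM in control. The value of wound bed batch 1 came from S100a8, with 725 of its 809 reads in 1 cell, and S100a9 had 0 and 1 reads in the wound bed, while Ngp had none in any region. That cell also held 3558 reads of the stefin A genes, 18.8% of those of its plate. Of the 12 leukocyte genes, 8 had reads, with sums of 4.42 and 0 CPM in the wound bed, 18.1 and 33.9 CPM in the distal region, and 0 and 9.80 CPM in control. A single distal cell had reads of at least 3 leukocyte genes, and the ratios without it differed from those with it by at most 0.014 on the log2 scale.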

How the data were processed

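The deposited table holds whole-number counts of reads per gene symbol and cell, and per the labels the libraries were made by Smart-Seq2. Salmon 0.13.1, R 4.0.3, Seurat and the build mm10 (GRCm38) are listed in the submitters' processing notes, with no role stated. How transcript estimates were assigned between near-identical genes, summed to symbols and rounded is not given in the sources used here. All 250 deposited cells were used, with a median of 49298 reads per cell (3857 to 3119120). No doublets were called and no free RNA was subtracted.

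Counts were summed per plate and scaled by TMM (edgeR 4.0.16, R 4.3.3), and log2 ratios of CPM + 1 were taken within each batch. A gene was considered when 10% of the cells of either region had a read in each batch. The size rule asked for log2 ratios of 1 or more in size with the same sign in both batches. No animal is named in the labels; each region is thus 1 sample, no test was run and no value has an error between animals. Shares have exact Clopper-Pearson 95% intervals, which cover counting error only: without molecular identifiers, PCR copies are counted as separate reads. Cells were thinned to 10000 reads, which left out 7 wound bed cells, 4 distal cells and 1 control cell. Cells rich in reads of predicted genes had over 5% of non-mitochondrial reads from Gm10800, Gm10801, Gm21738, Gm10717, Gm10718 and Gm10722. Scripts were tested on simulated data.

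The 5 genes and all 15 gene lists were chosen with earlier results of these data known. Apart from the 5 genes and their cluster neighbours, named genes were the most highly read members of a list, genes of a list that met the size rule, and the 8 most and 4 least alike genes by the median within-plate rho (1 of the 4 is not reported here), leaving out predicted, ribosomal protein and mitochondrial genes; the marker genes Krt14, Krt5, Lrig1, Ly6a, Ptprc, S100a8 and S100a9 were named after their values were seen. Gene positions and promoter windows came from RefSeq, and strands and transcripts from GENCODE M21 (GRCm38).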

Additional observations from a re-analysis of the deposited data

How the results depend on the processing

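The 4 genes with reads met the size rule in the wound bed and control comparison under all 15 alternatives (other scaling, pseudocount 10, no or a 25% detection filter, equal weight per cell, thinning, cell filters, library size without mitochondrial reads, and each batch alone). In the distal and control comparison, 2 of the 5 genes (Stfa1 and Stfa3) met it with every cell weighted equally and 2 among cells with at least 2000 detected genes, against 4 otherwise. Mean log2 ratios of distal over control ran from 1.54 to 6.06 for Cstdc5 and from 1.20 to 2.61 for Csta1. The 6.06 came from removal of the cells rich in reads of the 6 predicted genes. That removal left 1 Cstdc5 read and 0 Stfa1 reads in control batch 1, so ratios of these genes over control under it are not reliable in batch 1. With 1 batch alone, the rule asked for a log2 ratio of 1 or more in size in that batch only. In the distal and wound bed comparison, batch 1 alone then gave 1 higher (Stfa3) and 2 lower (Stfa1 and Cstdc5) of the 5. Batch 2 alone gave 3 lower (Stfa3, Csta1 and Cstdc5). Cstdc5 was lower under all 15, with mean log2 ratios from -3.141 to -2.003. The shares of all genes meeting the rule under these alternatives are not given here, so nothing is read from the counts of the 5.

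The share of cells with a read of any of the 5 genes was 70.4% in the distal region and 58.02% when 5 reads were asked for. In control it was 41.7%, against 26.2% with 5 reads, 23.8% at 100 CPM or more and 26.5% after thinning. The share of control cells with at least 3 of the genes was 2.38% when each needed 5 reads, against 7.14%. The causes were not tested. No paired analysis was possible because no result comes from a test; every ratio was taken within a batch, and replicate numbers name cells in accession order. Removal of cells rich in reads of the 6 predicted genes was chosen after seeing the data. The depth per cell limits what can be said of Stfa2 and of the other cluster genes.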
